A study of Homo sapiens with 40 samples.

Results

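NSD2 knockout (KO) clone 3 was compared with its parental line, KMS-11, a human multiple myeloma cell line with the t(4;14) translocation that places NSD2 under immunoglobulin control. H3K27me3 was mapped by CUT&Tag, in which an antibody against the modification brings a transposase to chromatin, so that DNA beside the mark is cut and sequenced. The comparison rested on 4 libraries, replicates 1 and 2 of NSD2 KO clone 3 and replicates 1 and 2 of the KO parental line, chosen by their titles among 30 H3K27me3 libraries with a peak list (40 libraries in the labels). Clone 3 carries the label KO and the parental cells the label WT, and both groups were untreated and otherwise grown alike. NSD2 KO clone 12, made from the same parental line, served as a side comparison (2 libraries). The untreated parental line of a degradation (dTAG) experiment in the same series was used to class regions. All 30 H3K27me3 libraries also entered the coverage filter, the limma fit and the mean length used for scaling. Among them are clones with dTAG-tagged NSD2 and cells given the dTAG compound. Each knockout line is 1 clone, so a property of the clone cannot be told apart from the loss of NSD2. The series text calls the KO replicates biological, whereas the labels do not say whether the parental replicates were grown apart. The p-values therefore reflect only how far libraries scatter, part of which may be technical. For limma this is the scatter within all 15 groups of the 30 H3K27me3 libraries. For the permutation tests it is that of the 4 compared libraries. The question behind the series is how H3K27me3 moves along the genome when NSD2 is lost.

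NSD2 is a histone methyltransferase that places H3K36me2, a mark spread broadly over genes and the ground between them. H3K27me3 is placed by Polycomb repressive complex 2 (PRC2), whose catalytic subunit is EZH1 or EZH2, and is known for holding developmental genes silent, above all at promoters rich in the base pair step CpG. PRC2 acts poorly on a histone tail that already carries H3K36 methylation, so the marks tend to occupy different ground. In t(4;14) myeloma, high NSD2 is known to widen H3K36me2 and to narrow H3K27me3.

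The peaks of a library were merged, and a gene or a window was scored by the percent of its bases inside a peak, called its coverage here. Coverage says how much of a gene was listed as marked, not how strongly. It cannot check the knockout itself: NSD2 (chr4:1871393-1982192) was covered by 0% and 0% in KO clone 3 and by 0.212% and 0% in the parental line, and no expression was measured in these lists. Depth was estimated as the peak caller's background pileup, which was 2.84 and 2.60 fragments per position in KO clone 3 against 2.58 and 1.50 in the parental line. Parental replicate 2 was therefore the shallowest of the 4, while KO replicate 2 and parental replicate 1 were nearly equal. Values of that depth-matched pair are given beside the main counts and the largest changes. The pair is 1 library against 1. Its counts of called genes and bins rest on the scatter within other groups and do not test the pair itself. For the gene groups only the medians in the pair are given, after the last group, and most members named there have no value of the pair. Called length rises with depth, and how much of each result below depth accounts for was not tested beyond this pair and the fits named.

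The upstream sequences of 5 genes are shown because the genes stand for different kinds of change described below. They were chosen after their values were seen. LCE6A and KRTAP4-11 became covered over gene and start together, TGFA and MET gained coverage in the gene body while the start was covered in every library, and CDX2 lost body coverage while its start was covered in none. Each line holds the 250 bases before the RefSeq gene start on GRCh38.p14, 5′ to 3′ on the gene's strand, with every CG in capitals.
LCE6A (chr1:152842606-152842855, plus strand): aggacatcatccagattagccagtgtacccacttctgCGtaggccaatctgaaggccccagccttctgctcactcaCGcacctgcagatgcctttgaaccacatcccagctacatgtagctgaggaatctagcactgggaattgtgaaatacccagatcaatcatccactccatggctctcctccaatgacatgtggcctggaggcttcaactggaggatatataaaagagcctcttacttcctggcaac
KRTAP4-11 (chr17:41118374-41118623, minus strand): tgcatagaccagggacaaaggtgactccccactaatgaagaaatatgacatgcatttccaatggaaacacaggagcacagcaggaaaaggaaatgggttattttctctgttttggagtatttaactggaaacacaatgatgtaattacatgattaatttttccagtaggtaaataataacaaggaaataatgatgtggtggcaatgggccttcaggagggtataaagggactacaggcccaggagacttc
TGFA (chr2:70553827-70554076, minus strand): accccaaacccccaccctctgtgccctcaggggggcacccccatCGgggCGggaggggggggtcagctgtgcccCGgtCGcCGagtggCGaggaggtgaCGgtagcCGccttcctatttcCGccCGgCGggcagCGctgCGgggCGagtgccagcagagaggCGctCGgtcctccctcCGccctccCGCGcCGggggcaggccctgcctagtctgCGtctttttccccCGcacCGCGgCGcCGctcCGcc
MET (chr7:116671946-116672195, plus strand): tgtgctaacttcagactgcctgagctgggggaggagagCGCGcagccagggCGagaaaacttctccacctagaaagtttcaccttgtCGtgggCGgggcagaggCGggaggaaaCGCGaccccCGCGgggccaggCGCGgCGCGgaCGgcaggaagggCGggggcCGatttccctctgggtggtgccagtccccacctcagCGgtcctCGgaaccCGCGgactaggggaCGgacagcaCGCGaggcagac
CDX2 (chr13:27969316-27969565, minus strand): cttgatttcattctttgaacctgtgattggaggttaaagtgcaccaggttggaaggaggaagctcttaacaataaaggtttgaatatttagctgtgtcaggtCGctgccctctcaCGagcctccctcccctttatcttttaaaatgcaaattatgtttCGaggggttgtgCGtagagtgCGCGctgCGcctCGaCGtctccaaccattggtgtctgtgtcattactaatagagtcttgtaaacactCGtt

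The motif CG, which reads the same on both strands, occurred 2 times before LCE6A, 0 times before KRTAP4-11, 27 times before TGFA, 24 times before MET and 10 times before CDX2. Over the 14721 autosomal upstream sequences of this length, 97.3% held at least 1 CG, and the median was 18 (quartiles 7 and 26).

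The knockout clone had many more peaks, and they were narrower and mostly of low significance. KO clone 3 had 201818 and 145087 autosomal peaks, against 69409 and 47207 in the parental line. The peaks covered 165 and 134.5 Mb in KO clone 3 and 80.1 and 53.1 Mb in the parental line, a ratio of the means of 2.25, and the groups did not overlap. The median peak was 596 and 698 bp wide in KO clone 3, against 814 and 828 bp in the parental line. The median fold enrichment, the authors' own value for each peak, was 2.66 and 2.68 in KO clone 3 and 2.68 and 2.83 in the parental line. With 2 libraries against 2, the exact two-sided permutation test could not give a p under 0.333, and each of these differences had that value (adjusted p = 0.405 over 17 library measures).

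The length in strong peaks did not separate the groups. Peaks with a -log10 q of at least 5 covered 31.0 and 18.2 Mb in KO clone 3, against 35.8 and 11.0 Mb in the parental line, so the groups overlapped (exact permutation p = 1.00). Weaker peaks covered 134 and 116 Mb in KO clone 3 and 44.2 and 42.1 Mb in the parental line. Peaks of 5 kb or wider numbered 210 and 141 in KO clone 3 and 451 and 158 in the parental line, again overlapping. Peaks with a fold of at least 4 made up 8.14% and 7.11% of the list in KO clone 3, against 16.7% and 13.2% in the parental line.

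The depth-matched pair showed both sides of this picture. KO replicate 2 covered 134.5 Mb and parental replicate 1 covered 80.1 Mb in all peaks, whereas the strong peaks covered 18.2 Mb in that KO library and 35.8 Mb in that parental library. Per unit of pileup, the called length was 58.0 and 51.7 Mb in KO clone 3 and 31.1 and 35.4 Mb in the parental line, a ratio of the means of 1.65.

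**Figure D1:**
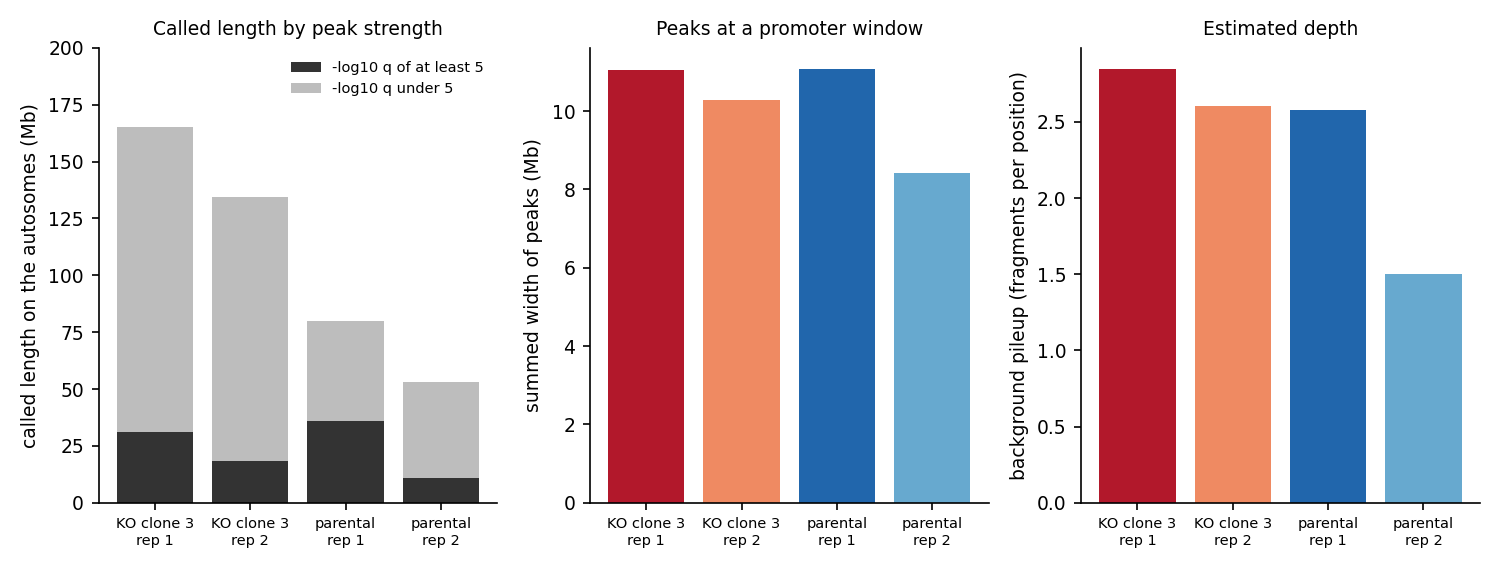
Per library, KO clone 3 left of the parental line: called length (Mb) split into peaks with a -log10 q of at least 5 (dark) and under 5 (light), summed width (Mb) of peaks that touch a promoter window, and estimated background pileup (fragments per position). Total called length is 165 and 134.5 Mb in KO clone 3 against 80.1 and 53.1 Mb in the parental line, while the dark parts and the promoter bars overlap between the groups.

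Most of the added peaks lay outside the promoter windows scored here. A promoter window here runs from 250 bases before to 50 bases after a RefSeq gene start. Windows were used for 14721 of the 18627 autosomal genes, so peaks at the other gene starts count as elsewhere. Peaks that touched such a window summed to 11.1 and 10.3 Mb in KO clone 3 and 11.1 and 8.41 Mb in the parental line, and those groups overlapped. Peaks elsewhere summed to 154 and 124 Mb in KO clone 3, against 69.0 and 44.7 Mb in the parental line.

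Of the peaks of KO clone 3, 67.9% and 62.3% touched no peak of either parental library. These unmatched KO peaks had a median width of 495 and 581 bp, against 868 and 918 bp for the KO peaks that did touch a parental peak. A fold of at least 4 was found in 2.92% and 1.56% of the unmatched KO peaks and in 19.2% and 16.3% of the matched ones. Promoter windows were touched by 0.666% and 0.681% of the unmatched KO peaks, against 13.3% and 15.0% of the matched ones. Many were far from any parental peak: 12.1% and 11.1% of all KO peaks lay over 100 kb from the nearest.

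In the other direction, most parental peaks had a counterpart in the knockout. On average over the 4 pairs of libraries, 28.9% of KO clone 3 peaks overlapped a parental peak by at least 1 bp, and 82.0% of parental peaks overlapped a KO clone 3 peak. Between replicates the shares were 66.1% in KO clone 3 and 73.5% in the parental line. The lists differ in length, which bears on each of these shares.

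Promoter windows were also scored on their own, counting a window as covered when at least 50% of it lay inside a peak. Covered windows made up 65.5% and 61.2% of 14721 in KO clone 3, against 59.5% and 49.1% in the parental line. In all 4 libraries 44.9% were covered, and those windows held a median of 29 CpG. Both KO libraries and neither parental library covered 662 windows (4.50%, median 18 CpG), and the reverse held for 82 windows (0.557%, median 18 CpG). Those covered in none of the 4, 29.0%, held a median of 7 CpG.

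These covered windows included starts of genes that every cell uses. Against 44.9% of all windows, 31 of 58 windows of ribosomal protein genes were covered in all 4 libraries, and 23 of 33 of proteasome subunit genes. Among HOX cluster genes, which are textbook Polycomb targets, 3 of 20 were, and among olfactory receptor genes 3 of 191. Peaks at promoter windows also had the higher folds, with a median of 4.17 and 3.93 in KO clone 3 and 4.03 and 3.68 in the parental line, against 2.64 and 2.66 elsewhere in KO clone 3 and 2.59 and 2.72 elsewhere in the parental line. The part that these starts play in the results was not tested.

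Coverage was also compared along the genome. Autosomes were cut into 114946 bins of 25 kb, and the 48616 with a mean coverage between 1% and 99% over the 30 libraries were tested with limma, a linear model across all features, with Benjamini-Hochberg adjustment. At an adjusted p under 0.05, 21393 bins gained coverage in KO clone 3 (44.0%) and 247 lost it (0.508%). A bin with little coverage passes that filter only through libraries in which it is covered, so means and shares are also given over all bins. Mean bin coverage was 5.74% and 4.68% in KO clone 3 and 2.79% and 1.85% in the parental line over all bins, and 12.6% and 10.3% in KO clone 3 and 6.55% and 4.34% in the parental line over the tested ones. After coverage was scaled to an equal called length in every library, 26.8% of bins were higher and 11.3% lower in KO clone 3. This scaling lowers the KO clone 3 values and raises the parental ones. A feature covered alike in both groups as listed therefore comes out lower. With each list shortened to its strongest 35.7 Mb, the counts were 1064 gained and 713 lost. In the depth-matched pair 7669 bins were gained and 237 lost. Gained bins numbered 12790 without KO replicate 1 and 13569 without parental replicate 2, and lost bins 140 and 114 without KO replicate 1 or 2 and 113 and 386 without parental replicate 1 or 2.

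The bins were classed by their coverage in the separate dTAG parental line. In the 83405 bins without coverage in that line, the mean was 2.63% and 2.06% in KO clone 3, against 0.0785% and 0.0484% in the KO parental line. Of these bins 21.8% passed the filter, and 15.4% of all of them were gained. In the 17412 bins covered by up to 5% the means were 9.34% and 7.68% in KO clone 3 and 3.35% and 2.17% in the parental line, and 38.6% were gained. In bins covered by 5% to 10% the means were 14.2% and 12.0% in KO clone 3 and 9.76% and 6.44% in the parental line, and 22.4% were gained. In the 119 bins covered by over 40%, the means were 47.4% and 40.8% in KO clone 3 and 51.5% and 38.5% in the parental line, and 0% were gained. The groups stood apart in the classes up to 10% and overlapped in those above. After scaling to equal called length, 55.7% of the tested bins of the uncovered class were higher and 0.544% lower in KO clone 3. In the class over 40% the shares were 0% and 95.0%. The median difference of that class was -0.096 percentage points as listed, so its lower values arise with the scaling. In the class up to 5% they were 16.7% and 3.87%, and in that of 5% to 10% they were 2.49% and 13.7%.

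**Figure D2:**
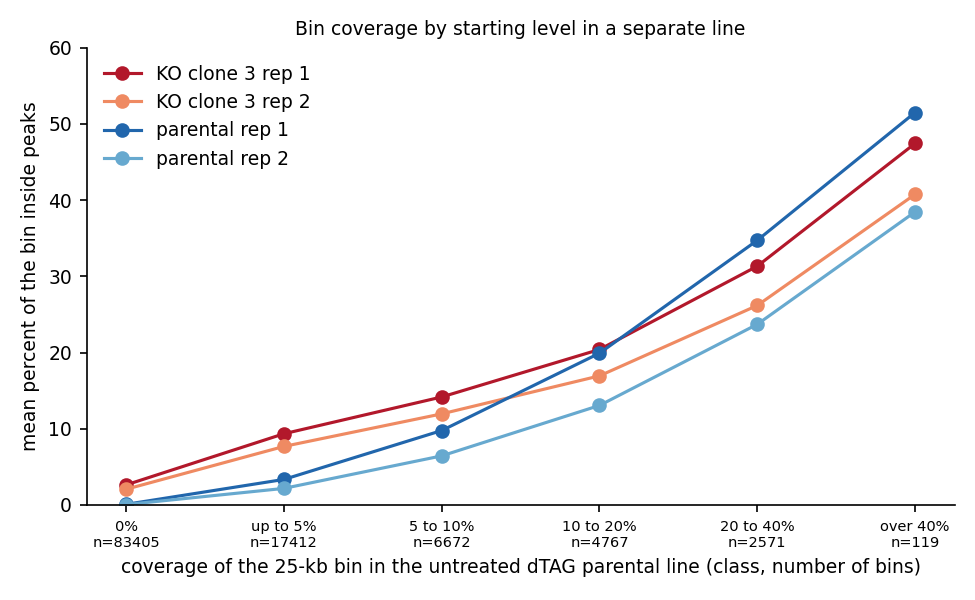
Mean percent of a 25-kb bin inside peaks (vertical axis) in the 2 KO clone 3 libraries (red) and the 2 parental libraries (blue), by the coverage of the bin in the untreated dTAG parental line (horizontal axis, with the number of bins). All autosomal bins are counted, also those too little covered to be tested. At 0% the means are 2.63% and 2.06% in KO clone 3 against 0.0785% and 0.0484% in the parental line, and over 40% the groups overlap.

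The order of the gained shares by gene content depended on the filter. Of the tested bins, 56.0% were gained among those free of protein-coding genes, 46.8% among those wholly inside genes and 28.6% among those partly inside genes, whereas of all bins, tested or not, the shares were 18.3%, 16.9% and 22.3% in that order. Over all gene-free bins the mean was 4.52% and 3.63% in KO clone 3 and 1.56% and 0.979% in the parental line. The share of called length inside genes was 44.5% and 44.3% in KO clone 3, against 51.7% and 51.8% in the parental line, with groups that did not overlap (exact permutation p = 0.333, the smallest possible). Bins 250 to 500 kb from the nearest coding gene had means of 2.60% and 2.03% in KO clone 3 and 0.715% and 0.420% in the parental line, tested or not.

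The share of gained bins varied between chromosomes. Chromosome 18, with 3.34 protein-coding genes per Mb, had 64.8% of its tested bins gained (29.0% of all its bins), and mean coverage over all bins of 6.09% and 4.85% in KO clone 3 against 1.11% and 0.712% in the parental line. Chromosome 4, the home of NSD2, had 59.2% of its tested bins gained (20.3% of all). Chromosome 19, with 24.5 genes per Mb, had 4.05% of its tested bins gained (2.94% of all) and 1.47% lost, with means over all bins of 10.2% and 8.41% in KO clone 3 against 11.3% and 7.53% in the parental line. On chromosome 22 the share gained was 13.7% of tested bins and 6.99% of all. After scaling, 45.1% of the tested bins were gained and 1.60% lost on chromosome 18, against 1.23% gained and 37.9% lost on chromosome 19. The median difference of tested bins on chromosome 19 was -0.336 percentage points as listed, and scaling lowers bins covered alike in both groups.

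Gained bins formed many short runs. There were 9743 runs of neighbouring gained bins, of which 5291 were a single bin and 7 reached 500 kb. The longest pair spanned 24 bins each. At chr12:58075001-58675000, which holds LOC105369787, coverage was 16.7% and 15.6% in KO clone 3 and 0.848% and 0.406% in the parental line. At chr5:81900001-82500000, with ATG10, an enzyme of autophagy, and RPS23, a ribosomal protein, it was 14.5% and 12.9% in KO clone 3 and 0.553% and 0.330% in the parental line. A run of 22 bins at chr16:79600001-80150000 held MAF, a transcription factor that other myeloma translocations activate, with 14.2% and 11.3% in KO clone 3 and 1.25% and 0.758% in the parental line. These runs were picked because their bins were called gained, so the gap between the groups adds no separate support.

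Further long runs were free of coding genes. The region chr18:51200001-51775000 (23 bins) had 15.3% and 11.8% in KO clone 3 and 0.207% and 0.119% in the parental line. The region chr1:208250001-208800000 (22 bins) had 14.9% and 13.8% in KO clone 3 and 1.36% and 0.621% in the parental line.

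Lost bins were scattered, with 218 of 231 runs a single bin. The longest was 4 bins at chr1:34025001-34125000, inside CSMD2, a large transmembrane protein gene, with 5.36% and 2.80% in KO clone 3 and 14.2% and 8.13% in the parental line. A second run inside the same gene, chr1:33800001-33850000, had 6.68% and 7.31% in KO clone 3 and 20.4% and 16.5% in the parental line. Another lay close by at chr1:34425001-34500000, with 5.93% and 1.54% in KO clone 3 and 20.0% and 7.91% in the parental line. CSMD2 as a whole was covered by 11.2% and 7.35% in KO clone 3 and by 17.4% and 9.91% in the parental line, which did not pass the test (limma adjusted p = 0.328).

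Over gene bodies, 13605 of 18627 autosomal protein-coding genes of at least 1 kb passed the same filter and were tested in the same way. KO clone 3 gained coverage in 2960 genes (21.8%) and lost it in 90 (0.662%). Regardless of the test, both KO libraries lay above both parental libraries in 44.3% of the genes and below both in 8.47%. The gained genes had a median coverage of 9.94% in KO clone 3 and 0.859% in the parental line, and 691 of them were at 0% in both parental libraries. The lost genes had a median of 2.06% in KO clone 3 and 14.6% in the parental line. The median difference over all tested genes was 1.88 percentage points as listed, -1.62 after scaling to equal called length, and 0.351 in the depth-matched pair. After scaling, 11.3% of genes were higher and 12.7% lower, and 1538 gained and 87 lost genes kept their call. In the depth-matched pair 1046 genes were gained and 56 lost. The count of gained genes was 1870 without KO replicate 1 and 1781 without parental replicate 2, and that of lost genes was 42 without KO replicate 1 and 43 without KO replicate 2.

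The share of gained genes was higher in each longer class of gene, which by itself does not mean a larger rise in coverage. The filter passed 76.5% of the shortest class and 44.7% of the longest. Equal changes are called more easily where coverage scatters less, and the scatter was not compared between classes. Of tested genes of 1 to 5 kb 5.85% were gained, and of those over 300 kb 77.9%; of all genes, tested or not, the shares were 4.48% and 34.8%. After scaling, 2.77% of the shortest class were gained and 8.83% lost, and of the longest 62.4% were gained and 7.58% lost. Mean coverage of all genes of the shortest class was 22.5% and 18.7% in KO clone 3 and 20.3% and 14.6% in the parental line, which overlapped. All genes over 300 kb had means of 4.28% and 3.37% in KO clone 3 and 1.49% and 0.924% in the parental line, which did not overlap. In percentage points, the gap between the group means was no larger in the longest class than in the shortest. The median gained gene was 63.7 kb long, against 20.9 kb for all tested genes and 9.68 kb for lost genes.

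**Figure D3:**
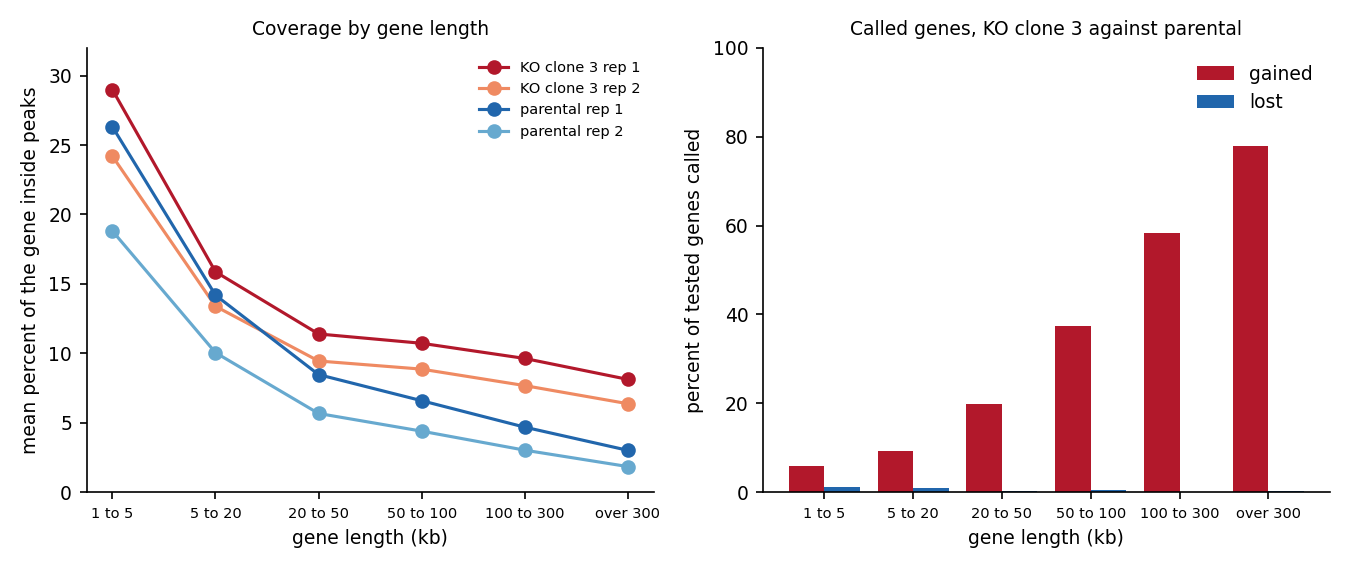
Left, mean percent of the gene inside peaks by gene length (kb), over tested genes, in the KO clone 3 libraries (red) and the parental libraries (blue). Right, percent of tested genes called gained (red) or lost (blue) in KO clone 3 against the parental line. The share gained is 5.85% in the shortest class and 77.9% in the longest. Of all genes, tested or not, it is 4.48% and 34.8%.

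Among genes of 100 kb or more, the 5 with the largest increase were TF, NOS1AP, GLIS1, NMNAT2 and TBXAS1. TF, which encodes the iron carrier transferrin (chr3:133661998-133796641), was covered by 22.4% and 23.0% in KO clone 3 and by 2.81% and 1.56% in the parental line, a difference of 20.5 percentage points (SE 2.95, limma adjusted p = 7.52e-05). NOS1AP, an adaptor of neuronal nitric oxide synthase, had 24.6% and 21.2% in KO clone 3 and 3.00% and 3.25% in the parental line (limma adjusted p = 0.000220). GLIS1, a zinc finger transcription factor, had 26.1% and 21.0% in KO clone 3 and 7.50% and 1.48% in the parental line (limma adjusted p = 0.000996). The choice of genes for this set required both KO libraries to lie above both parental libraries. NMNAT2, an enzyme of NAD synthesis in axons, had 20.3% and 21.0% in KO clone 3 and 1.53% and 1.94% in the parental line (limma adjusted p = 0.000596). TBXAS1, thromboxane synthase, had 23.2% and 20.8% in KO clone 3 and 4.11% and 2.85% in the parental line (limma adjusted p = 0.00208). All 5 stayed higher after scaling, by 8.66 to 11.0 percentage points. In the depth-matched pair the differences were 20.2 percentage points for TF, 18.2 for NOS1AP, 13.5 for GLIS1, 19.5 for NMNAT2 and 16.7 for TBXAS1.

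The largest increases of any length were in small genes, where a single peak can fill the gene. The 10 with the largest increase included LCE2A, LCE3E, LCE6A and LCE2B, late cornified envelope proteins of the skin, and SPRR2E, a small proline-rich protein of the same layer. LCE6A (chr1:152842856-152843983), whose upstream sequence is printed above, was covered by 100% and 100% in KO clone 3 and 0% and 0% in the parental line (difference 100 percentage points, SE 35.1, limma adjusted p = 0.0491). LCE3E had the same values with a smaller error (SE 20.1, limma adjusted p = 0.00136), and so did LCE2A (limma adjusted p = 0.0371). LCE2B had 100% and 59.7% in KO clone 3 and 0% and 0% in the parental line (limma adjusted p = 0.0477), and SPRR2E had 88.9% and 74.1% in KO clone 3 and 0% and 0% in the parental line (limma adjusted p = 0.0139). The choice of genes required the groups to stand apart. These families have near-identical copies whose reads may be split or shared, so the single-gene values are uncertain. After scaling none of these 5 genes passed the threshold (limma adjusted p 0.0581 to 0.310). In the depth-matched pair, 1 library against 1, their differences ran from 59.7 percentage points in LCE2B to 100 in LCE2A, LCE3E and LCE6A.

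Other small genes with large increases came from unrelated families. BECN2, a relative of the autophagy protein beclin, had 99.1% and 71.4% in KO clone 3 and 0% and 0% in the parental line (difference 85.2 percentage points, SE 8.52, limma adjusted p = 2.66e-06). NAT8, an N-acetyltransferase of kidney and liver, had 83.1% and 82.2% in KO clone 3 and 0% and 0.529% in the parental line (limma adjusted p = 7.31e-05). H1-7, a testis linker histone, had 79.8% and 100% in KO clone 3 and 0% and 0% in the parental line (limma adjusted p = 0.00724). In these 3 genes the call held after scaling (adjusted p 1.75e-06 to 0.0468). KRTAP4-11, a keratin-associated protein of hair, had 63.8% and 100% in KO clone 3 and 0% and 0% in the parental line (limma adjusted p = 0.0152). FITM1, a protein of lipid droplet formation, had 70.4% and 100% in KO clone 3 and 15.6% and 0% in the parental line (limma adjusted p = 0.0245); it did not pass after scaling (adjusted p = 0.119). In the depth-matched pair the differences were 71.4 percentage points for BECN2, 82.2 for NAT8, 100 for H1-7 and KRTAP4-11 and 84.4 for FITM1.

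The largest decreases also fell on small genes. C11orf96 had 0% and 0% in KO clone 3 and 100% and 100% in the parental line (SE 33.2, limma adjusted p = 0.0376). MISP3 had 14.8% and 39.0% in KO clone 3 and 100% and 100% in the parental line (limma adjusted p = 0.000546), and RNF223, a RING finger protein gene, had 26.0% and 11.9% in KO clone 3 and 73.1% and 72.7% in the parental line (limma adjusted p = 0.000122). Both KO libraries had to lie below both parental libraries for a gene to be named among the decreases. NOG, which encodes the BMP antagonist noggin, had 61.0% and 60.7% in KO clone 3 and 100% and 100% in the parental line (limma adjusted p = 0.0482). S1PR1, a sphingosine 1-phosphate receptor that guides lymphocyte exit from tissues, had 8.18% and 1.07% in KO clone 3 and 44.9% and 41.6% in the parental line (limma adjusted p = 0.0297).

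The other 5 of the 10 largest decreases were in KRT13, KRT6C, FAM90A20, FAM90A26 and TMEM95. KRT13, a keratin of mucosa, had 45.4% and 12.1% in KO clone 3 and 68.3% and 98.2% in the parental line, and KRT6C, a keratin of stressed epidermis with near-identical copies, had 18.4% and 32.5% in KO clone 3 and 79.3% and 58.9% in the parental line. FAM90A20 and FAM90A26, members of a multicopy primate family, were at 0% and 0% in KO clone 3, against 71.7% and 80.9% for FAM90A20 and 35.7% and 36.9% for FAM90A26 in the parental line; reads of such copies cannot be placed with certainty. TMEM95, a sperm membrane protein, had 10.2% and 24.0% in KO clone 3 and 55.6% and 63.0% in the parental line. After scaling, which lowers KO clone 3 values and raises parental ones, the 9 named decreases other than NOG kept their call. In the depth-matched pair the differences of these 10 genes ran from -100 percentage points in C11orf96 to -31.5 in TMEM95.

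**Figure D4:**
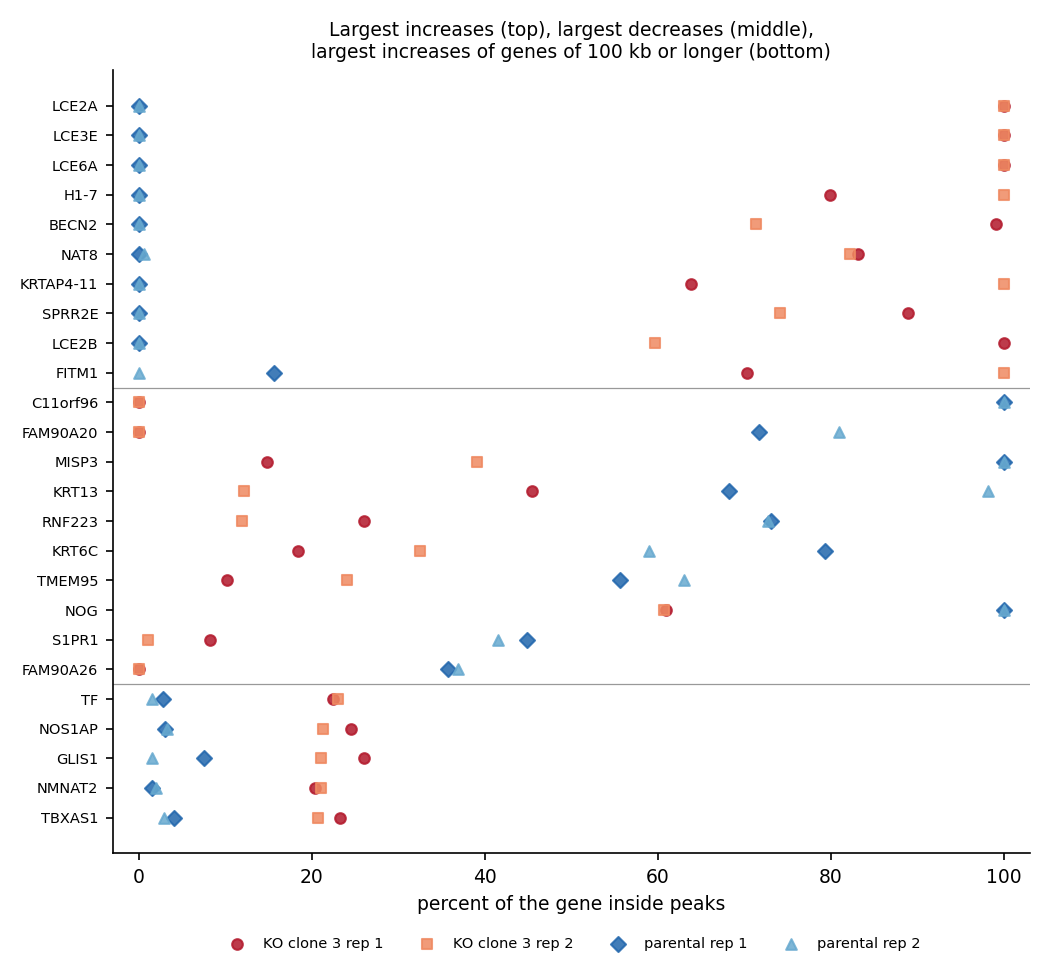
Percent of the gene inside peaks (horizontal axis) in each of the 4 libraries for the genes with the largest increases, the largest decreases and, among genes of 100 kb or longer, the largest increases; red marks are KO clone 3 and blue marks the parental line. BECN2, for example, is at 99.1% and 71.4% in KO clone 3 against 0% and 0% in the parental line. Only genes whose red marks both lie on the same side of both blue marks were chosen.

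Genes tied to NSD2 in t(4;14) myeloma were gained in part. For this and the groups below, counts and medians cover only members that passed the filter, unless annotated genes are named. After scaling, 11.3% of all tested genes were gained and 12.7% lost, and scaling lowers a gene covered alike in both groups. Of the 10 tested members of this list, 4 were gained and none lost, against 21.8% and 0.662% of all tested genes. Their median difference was 3.92 percentage points as listed but -1.47 after scaling, when 3 were gained and 0 lost. The gained members were long genes. TGFA, MET and PAK1 fall in the class of 100 to 300 kb, of which 58.4% were gained, and RRAS2 in that of 50 to 100 kb, with 37.5%. Whether the list exceeds genes of like length was not tested. TGFA, a ligand of the EGF receptor (chr2:70447284-70553826), had 18.4% and 16.6% in KO clone 3 and 0.422% and 0.353% in the parental line (difference 17.1 percentage points, SE 3.05, limma adjusted p = 0.000503). MET, the receptor of hepatocyte growth factor (chr7:116672196-116798377), had 12.6% and 9.65% in KO clone 3 and 0.404% and 0.493% in the parental line (difference 10.7, SE 1.67, limma adjusted p = 0.000155). Their promoter windows, whose first 250 bases are printed above, were fully covered in each of the 4 libraries, so the difference lay in the body of the gene. PAK1, a kinase of cell movement, had 8.62% and 8.98% in KO clone 3 and 0.998% and 1.09% in the parental line (limma adjusted p = 5.22e-05). RRAS2, a RAS-related GTPase, had 5.94% and 6.60% in KO clone 3 and 1.64% and 1.41% in the parental line (limma adjusted p = 0.000961). TGFA, MET and PAK1 also passed after scaling. In the depth-matched pair the differences were 16.2 percentage points for TGFA, 9.25 for MET, 7.98 for PAK1 and 4.95 for RRAS2.

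Other members of that list were not called, or had too little coverage to be tested. FGFR3, the receptor gene beside NSD2 at the translocation, had 36.4% and 18.8% in KO clone 3 and 31.6% and 13.6% in the parental line (limma adjusted p = 0.922). DKK1, a secreted Wnt inhibitor made by myeloma cells, had 28.4% and 24.6% in KO clone 3 and 27.9% and 20.5% in the parental line. ITGB7, an adhesion receptor subunit, had 16.8% and 16.7% in KO clone 3 and 14.8% and 14.6% in the parental line. CCND2, a cyclin, was almost uncovered in all 4 libraries, with at most 0.643%.

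None of 13 tested plasma cell identity genes was called, against 21.8% gained and 0.662% lost over all genes. After scaling 0 were gained and 1 was lost. Among defining markers of the cell type, TNFRSF17 (BCMA) was at 0% in all 4 libraries, and IRF4, a factor that myeloma cells need, had 3.32% and 5.34% in KO clone 3 and 2.24% and 0.213% in the parental line. SDC1 (CD138) had 9.05% and 12.0% in KO clone 3 and 4.73% and 5.77% in the parental line (limma adjusted p = 0.156). CD38 had 7.26% and 8.95% in KO clone 3 and 3.87% and 2.17% in the parental line (limma adjusted p = 0.0524). SLAMF7 was the most covered member, with 45.3% and 40.6% in KO clone 3 and 26.5% and 24.3% in the parental line (limma adjusted p = 0.174). FKBP11 was lower, with 12.2% and 10.8% in KO clone 3 and 13.0% and 14.3% in the parental line (limma adjusted p after scaling = 0.00285). POU2AF1 had 1.05% and 0% in KO clone 3 and 2.34% and 0.825% in the parental line. MZB1 had 10.7% and 11.1% in KO clone 3 and 10.9% and 10.8% in the parental line. The median member was covered by 5.11% in KO clone 3 and 4.68% in the parental line. The median difference was 0.42 percentage points as listed and -1.75 after scaling.

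B cell genes that plasma cells switch off had a median of 14.4% in KO clone 3 and 8.20% in the parental line. Of 25 tested, 3 were gained (12.0%, against 21.8% of all genes) and 1 was lost. After scaling 0 were gained and 4 lost, against 11.3% and 12.7% of all tested genes. The median difference was 3.18 percentage points as listed and -3.18 after scaling. CR2, the complement receptor CD21, had 15.8% and 12.6% in KO clone 3 and 1.80% and 2.69% in the parental line (limma adjusted p = 0.000360). FCRL1, an Fc receptor-like protein, had 24.1% and 18.7% in KO clone 3 and 10.6% and 2.41% in the parental line (limma adjusted p = 0.0175). TCL1A, an AKT cofactor of early B cells, went the other way, with 0% and 0% in KO clone 3 and 32.0% and 24.3% in the parental line (limma adjusted p = 0.0113). PAX5, the B cell master factor, had 17.0% and 11.8% in KO clone 3 and 13.6% and 11.0% in the parental line and was not called.

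Genes of other blood lineages differed in their counts. Of 27 monocyte and macrophage genes 11 were gained (40.7%, against 21.8% of all genes) and 0 lost, but after scaling 5 were gained and 5 lost, and their median was 20.3% in KO clone 3 and 8.18% in the parental line; the median difference was 8.83 percentage points as listed and 0 after scaling. S100A12, a calcium-binding protein of neutrophils and monocytes, had 77.3% and 70.1% in KO clone 3 and 13.5% and 0% in the parental line (limma adjusted p = 0.0222). CD1E, a lipid antigen chaperone of dendritic cells, had 40.9% and 59.4% in KO clone 3 and 0% and 0% in the parental line (limma adjusted p = 0.0322). Neither S100A12 nor CD1E passed after scaling (limma adjusted p = 0.306 and 0.148). Of 30 T and NK cell genes 7 were gained, close to the 21.8% of all genes, and after scaling 4 were gained and 10 lost, and their median difference was 5.09 percentage points as listed and -3.33 after scaling. GZMK, a granule protease, had 15.7% and 20.2% in KO clone 3 and 0% and 0% in the parental line (limma adjusted p = 0.00711). CD247, the zeta chain of the T cell receptor complex, had 29.1% and 26.2% in KO clone 3 and 14.8% and 6.79% in the parental line (limma adjusted p = 0.0265). After scaling GZMK passed (limma adjusted p = 0.0354), and CD247 did not, with a difference of 2.66 percentage points (limma adjusted p = 0.556).

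Immune surface molecules were also counted. Of 20 chemokine receptor genes 6 were gained (30.0%, against 21.8% of all genes) and 0 lost, after scaling 5 and 0, and the median difference was 6.94 percentage points as listed and 3.70 after scaling. ACKR5, which takes up chemokines without signalling as other receptors do, had 25.5% and 34.1% in KO clone 3 and 0% and 0% in the parental line (limma adjusted p = 0.0493). CCR8, a receptor of regulatory T cells, had 30.0% and 12.3% in KO clone 3 and 0% and 0% in the parental line (limma adjusted p = 0.00999). After scaling CCR8 passed and ACKR5 did not (limma adjusted p = 0.0160 and 0.136). Of 11 MHC class II genes 5 were gained and 0 lost, but none was called after scaling, with a median difference of 9.63 percentage points as listed and 1.84 after scaling. HLA-DOB, a modulator of peptide loading, had 37.2% and 51.4% in KO clone 3 and 0% and 8.75% in the parental line (limma adjusted p = 0.0220). HLA-DQA2 had 29.2% and 27.4% in KO clone 3 and 0% and 0% in the parental line (limma adjusted p = 0.0185), and since these genes have close copies and vary between genomes, their reads may be placed with error.

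Classical Polycomb targets were covered in both groups. HOX cluster genes, the regulators of body axis, were already covered by a median of 26.9% in the parental line, against 23.9% in KO clone 3. Of 35 tested, 1 was gained and none lost, against 21.8% and 0.662% of all genes, and after scaling 0 were gained and 10 lost. The median difference was -1.27 percentage points as listed and -20.5 after scaling, which by itself lowers genes covered alike in both groups. HOXA3 was the exception, with 14.7% and 22.3% in KO clone 3 and 9.86% and 7.43% in the parental line (limma adjusted p = 0.0121), and its difference was -0.37 after scaling. HOXC4 had 40.7% and 39.9% in KO clone 3 and 50.8% and 38.8% in the parental line, and HOXD13 had 31.9% and 16.1% in KO clone 3 and 31.5% and 33.1% in the parental line, neither passing.

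Developmental transcription factors moved in both directions. Of 79 tested, 13 were gained (16.5%, against 21.8% of all genes) and 4 lost (against 0.662%). After scaling 3 were gained and 14 lost, against 11.3% and 12.7% of all tested genes. Their median difference was 2.20 percentage points as listed and -5.70 after scaling. SOX10, a neural crest factor, had 51.0% and 21.6% in KO clone 3 and 5.40% and 0% in the parental line (limma adjusted p = 0.00438). NR2F1, an orphan nuclear receptor, had 28.6% and 28.7% in KO clone 3 and 4.79% and 3.75% in the parental line (limma adjusted p = 0.00797). Neither SOX10 nor NR2F1 passed after scaling (limma adjusted p = 0.102 and 0.404). Those lost were CDX2, FOXF1, NKX2-5 and TBX5. CDX2, an intestinal factor (chr13:27960918-27969315), had 5.51% and 0% in KO clone 3 and 29.6% and 36.9% in the parental line (difference -30.5 percentage points, SE 5.13, limma adjusted p = 0.000305). FOXF1, a factor of gut and lung mesenchyme, had 23.8% and 21.3% in KO clone 3 and 49.4% and 48.5% in the parental line (limma adjusted p = 0.0272).

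Genes for the writers and keepers of these marks were tested too. Of 22 Polycomb subunit genes 2 were gained (9.09%, against 21.8% of all genes) and 0 lost, and after scaling 0 were gained and 2 lost. The gained genes were EED and RNF2. EED, the PRC2 subunit that binds H3K27me3, had 11.1% and 7.97% in KO clone 3 and 5.73% and 2.04% in the parental line (limma adjusted p = 0.0116). RNF2, the ubiquitin ligase of PRC1, had 6.05% and 2.45% in KO clone 3 and 1.21% and 0.838% in the parental line (limma adjusted p = 0.00514). Neither passed after scaling. EZH2 was covered by 1.35% and 0.698% in KO clone 3 and 0.493% and 0.0260% in the parental line, too little for the test. Of 7 tested genes for H3K36 and H3K27 methylation enzymes 1 was gained (14.3%) and 0 lost, and after scaling 0 were gained and 1 lost. The gained gene was SMYD2, with 2.22% and 5.93% in KO clone 3 and 1.27% and 1.06% in the parental line (limma adjusted p = 0.0158). Of 6 cell cycle inhibitor genes 0 were called, against 21.8% gained and 0.662% lost over all genes. CDKN2A had 3.83% and 3.56% in KO clone 3 and 4.12% and 3.38% in the parental line, and CDKN1A had 26.8% and 32.0% in KO clone 3 and 22.3% and 23.2% in the parental line.

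Adhesion and matrix genes were gained in part, and scaling moved their counts. Of 19 tested cadherin and non-clustered protocadherin genes 9 were gained (47.4%, against 21.8% of all tested genes) and 0 lost. After scaling 4 were gained and 6 lost. The tested median was 15.2% in KO clone 3 and 4.38% in the parental line. Over all 33 annotated members the median was 5.91% in KO clone 3 and 0.225% in the parental line. The median difference of tested members was 5.07 percentage points as listed and 0.57 after scaling. PCDH18, a cell adhesion protein, had 10.5% and 15.2% in KO clone 3 and 0% and 0% in the parental line (limma adjusted p = 0.000246), and PCDH8 had 23.6% and 12.4% in KO clone 3 and 0% and 0% in the parental line (limma adjusted p = 0.0188). After scaling PCDH18 passed and PCDH8 did not (limma adjusted p = 0.00266 and 0.103). Of 33 tested collagen chain genes 11 were gained (33.3%) and 0 lost, but after scaling 7 were gained and 16 lost. The median difference was 4.82 percentage points as listed and -6.42 after scaling. Over all 42 annotated members the mean was 19.7% and 16.9% in KO clone 3 and 17.6% and 10.8% in the parental line, which overlapped. COL17A1, a skin anchoring collagen, had 25.5% and 17.3% in KO clone 3 and 5.69% and 2.52% in the parental line (limma adjusted p = 0.00972), and did not pass after scaling (limma adjusted p = 0.0743). COL27A1, a cartilage collagen, had 32.2% and 22.3% in KO clone 3 and 20.7% and 11.6% in the parental line (limma adjusted p = 0.0493), and its difference turned to -5.30 after scaling. Of 3 clustered protocadherin genes tested, 0 were called.

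Receptor and channel genes of excitable cells were gained in part as well. Of 19 tested glutamate and GABA receptor genes 7 were gained (36.8%, against 21.8% of all tested genes) and 0 lost. After scaling 6 were gained and 7 lost. The median difference was 2.51 percentage points as listed and -5.95 after scaling. Over all 42 annotated members the mean was 10.2% and 8.16% in KO clone 3 and 9.55% and 6.07% in the parental line, which overlapped. GABRR3 had 9.42% and 12.2% in KO clone 3 and 0% and 0% in the parental line (limma adjusted p = 0.000286), and GABRR2 had 16.0% and 10.1% in KO clone 3 and 1.46% and 0% in the parental line (limma adjusted p = 0.0162); both encode GABA receptor subunits of retina. Of 71 tested potassium channel genes 12 were gained (16.9%) and 0 lost, but after scaling 7 were gained and 16 lost. The median difference was 3.46 percentage points as listed and -4.90 after scaling. Over all 93 annotated members the mean was 15.0% and 11.5% in KO clone 3 and 13.8% and 8.03% in the parental line, which overlapped. KCNAB1, a regulatory beta subunit, had 15.0% and 13.6% in KO clone 3 and 0.652% and 0.0679% in the parental line (limma adjusted p = 0.000209). KCNG3, a modifying subunit, had 15.8% and 11.9% in KO clone 3 and 0.174% and 0% in the parental line (limma adjusted p = 0.000523).

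Counts varied among families that lie in large clusters. Over all 239 annotated olfactory receptor genes the mean was 6.64% and 4.76% in KO clone 3 and 2.49% and 1.60% in the parental line, and the median gene was at 0% in both groups. Any coverage was found in 104 and 81 of them in KO clone 3 and in 28 and 24 in the parental line. The filter passed 89, which needed coverage in some library to do so, and 28 of these were gained and 2 lost, or 20 and 7 after scaling. OR5AU1 had 63.6% and 81.8% in KO clone 3 and 0% and 0% in the parental line (limma adjusted p = 0.00724). The lost pair, OR7D2 and OR7E24, sit among the genes of chromosome 19: OR7D2 had 3.98% and 3.18% in KO clone 3 and 13.4% and 8.78% in the parental line (limma adjusted p = 0.00352). Of 317 tested zinc finger (ZNF) genes (504 annotated) 16 were gained and 5 lost, a share of 5.05% gained against 21.8% over all tested genes. After scaling 11 were gained and 39 lost, against 11.3% gained and 12.7% lost over all tested genes. The median difference was 0.07 percentage points as listed and -2.36 after scaling. ZNF311 had 24.0% and 17.3% in KO clone 3 and 0% and 0% in the parental line (limma adjusted p = 0.00176), and ZNF266 had 0.596% and 0% in KO clone 3 and 9.85% and 1.65% in the parental line (limma adjusted p = 0.0264). Of 85 tested keratin and keratin-associated protein genes 12 were gained (14.1%, against 21.8% of all tested genes) and 3 lost. After scaling 5 were gained and 17 lost, against 11.3% and 12.7% of all tested genes. The median difference was 2.75 percentage points as listed and -18.9 after scaling.

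Genes that every cell uses were tested as well. None of 24 proteasome subunit genes was called, against 21.8% gained and 0.662% lost over all genes, nor was any after scaling, and their median was 3.37% in KO clone 3 and 3.05% in the parental line. Of 68 ribosomal protein genes 0 were gained and 1 was lost (0 and 3 after scaling), RPL6, with 3.72% and 0.535% in KO clone 3 and 6.69% and 13.5% in the parental line (limma adjusted p = 0.0438). In the depth-matched pair the median difference was 0.351 percentage points over all tested genes. It was 5.23 for chemokine receptors, 5.16 for MHC class II, 4.09 for olfactory receptors and 3.07 for cadherins. It was 2.63 for cell cycle inhibitors, 2.52 for genes tied to NSD2, 1.22 for T and NK cells and 1.20 for monocytes. In the same pair it was 0.51 for Polycomb subunits, 0.50 for collagens, 0.42 for proteasome, 0.20 for ribosomal, 0.13 for methylation enzyme and 0.11 for plasma cell genes. The median was 0 for developmental factors, potassium channels and keratins. Below 0 stood B cell genes (-0.01), ZNF genes (-0.21), clustered protocadherins (-2.99), glutamate and GABA receptors (-4.95) and HOX genes (-5.55). None of the gene groups above was matched to others in gene length, with which the share gained varied.

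**Figure D5:**
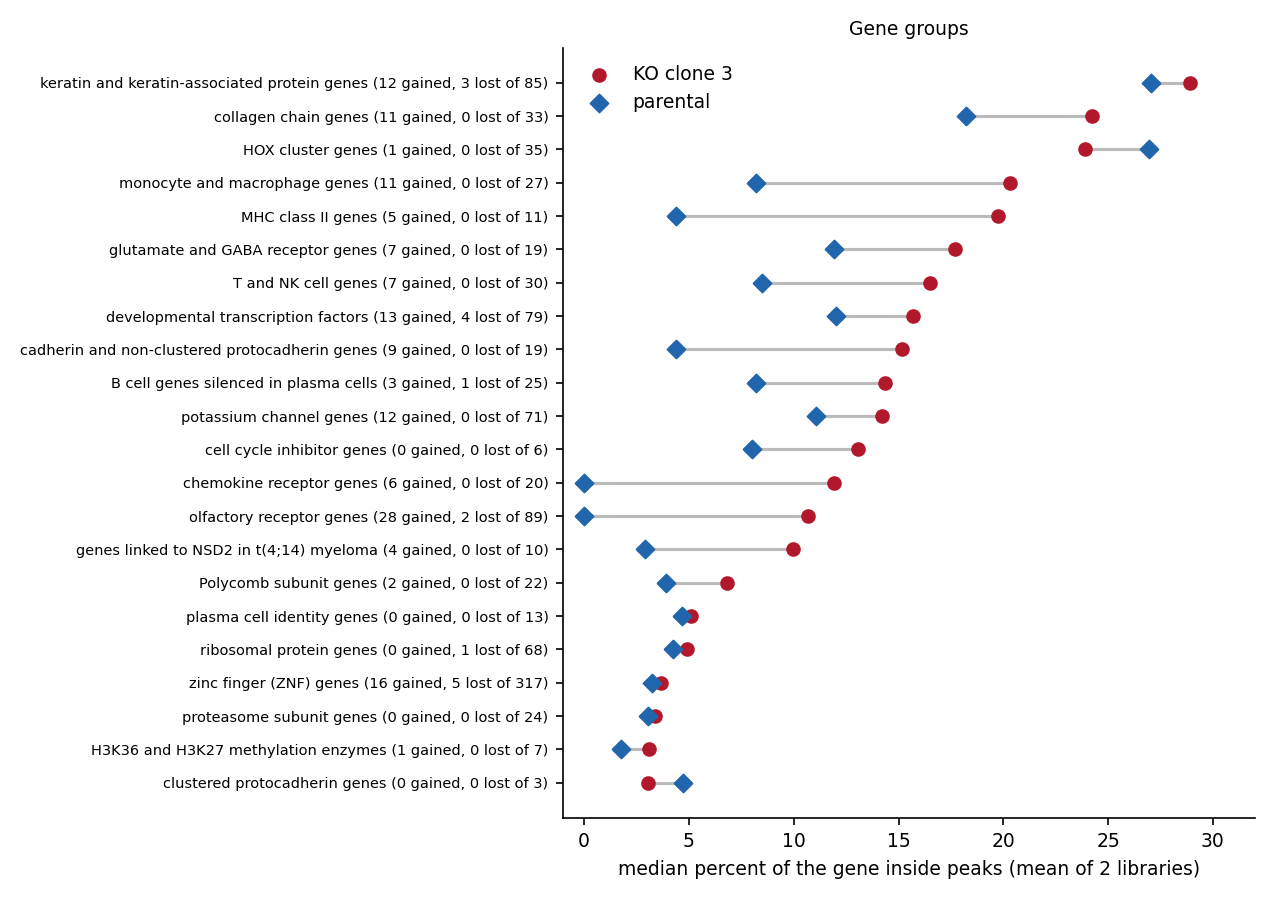
Median percent of the gene inside peaks over the tested members of each gene group (horizontal axis), in KO clone 3 (red) and the parental line (blue), each gene taken as the mean of 2 libraries; the row labels give the members gained and lost. HOX cluster genes stand at 23.9% in KO clone 3 and 26.9% in the parental line, and monocyte and macrophage genes at 20.3% and 8.18%.

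NSD2 KO clone 12 lay between KO clone 3 and the parental line in the length of its lists, with 121 and 92.8 Mb and an estimated pileup of 2.46 and 2.04. Tested directly, KO clone 3 was higher than clone 12 in 519 genes (3.81%) and lower in 13 (0.0956%), and in 8.27% and 0.150% of the bins. After scaling to equal called length the counts were 57 higher and 6 lower. The higher count was 264 without KO clone 3 replicate 1 and 144 without KO clone 12 replicate 2, and the lower count was 41 and 40 without KO clone 12 replicate 1 or 2. TGFA had 18.4% and 16.6% in KO clone 3 and 13.5% and 9.65% in KO clone 12 (limma adjusted p = 0.391), and MET had 12.6% and 9.65% in KO clone 3 and 8.36% and 5.67% in KO clone 12 (limma adjusted p = 0.216). The genes in which the clones differed beyond the threshold included BECN2, NAT8, MISP3, RNF223, TCL1A and OR51Q1. These were named for their change against the parental line, and with only the compared clones in the fit 0 genes were called.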

How the data were processed

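H3K27me3 CUT&Tag was done on 50000 nuclei per library with 13 PCR cycles, per the labels' protocols. The build was hg38, and MACS3 3.0.2, ChIPseeker 1.42.1, Bowtie2, fastp 0.24.0, DESeq2, deepTools 3.5.1, Picard and SAMtools are the tools listed, without order or role, per the submitters' processing notes. The deposited files are broadPeak lists, 1 per library, in which each peak carries the authors' fold (a ratio over background), -log10 p, -log10 q and a score. How peaks were called, and against which control, is not given in the sources used here.

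Peaks were merged per library and coverage was computed over 18627 RefSeq protein-coding autosomal genes (GRCh38.p14) of at least 1000 bp and over 25-kb bins, keeping features with a mean between 1% and 99%. A feature of low coverage passes this filter through the groups in which it is high, so some means and shares are also given over all features, a choice made after seeing the data. Features were tested with limma 3.58.1 (R 4.3.3), fitting a mean for each group over 30 libraries (15 groups, 15 residual degrees of freedom), eBayes with trend, and a Benjamini-Hochberg adjusted p under 0.05. Scaling multiplied each library's coverage by the mean called length over its own, so scaled values can pass 100%. Features at 0% or 100% in many groups add little spread, so their p can be too small. Library measures used exact two-sided permutation tests. Depth was solved from fold and -log10 p of the shortest 2% of peaks (tolerance 0.002, window 0.01), assuming a caller pseudocount of 1 and a genome-wide background, neither of which could be checked. Promoter windows (250 bases before and 50 after the start) came from RefSeq. They were used for 14721 of the 18627 genes, with none on chromosome 8, so peaks at the other starts count as elsewhere.

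The genes named are, among called genes whose KO libraries both lie on the same side of both parental libraries, the 10 with the largest increase, the 10 with the largest decrease and the 5 of at least 100 kb with the largest increase, with up to 2 called members in each direction of a list; other members named were chosen after their values were seen. The members and lists were chosen with earlier results of these data known. The limma code was also run on simulated data, but the outcome is not given here, so no weight is placed on it. Tables were made in Python 3.11.15 with pandas 2.3.3, numpy 2.4.6 and scipy 1.17.1, and figures with matplotlib 3.10.9.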

Additional observations from a re-analysis of the deposited data

Results flagged for a closer look

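Both knockout clones carry the loss of NSD2, and 6 of the named genes differed between them when KO clone 3 was tested against KO clone 12 (limma adjusted p under 0.05). The named genes were picked by their change from the parental line to KO clone 3, which favours extreme KO clone 3 values. With only the compared clones in the fit, 0 genes were called higher and 0 lower, so these calls rest on the scatter within other groups. BECN2, an autophagy protein, had 99.1% and 71.4% in KO clone 3 and 17.5% and 0% in KO clone 12, a difference of 76.5 percentage points (adjusted p = 4.02e-05). NAT8, an N-acetyltransferase, had 83.1% and 82.2% in KO clone 3 and 26.4% and 20.2% in KO clone 12, a difference of 59.4 points (adjusted p = 0.00784). OR51Q1, an olfactory receptor, had 30.9% and 74.4% in KO clone 3 and 20.5% and 27.1% in KO clone 12. The clones did not overlap, with a difference of 28.8 points (limma adjusted p = 0.0391). The SD of its KO clone 3 libraries was 30.7 points against a limma SE of 7.55, so this p does not reflect their scatter.

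In the other 3 genes KO clone 3 was the lower. MISP3 had 14.8% and 39.0% in KO clone 3 and 100% and 100% in KO clone 12, a difference of -73.1 points (adjusted p = 0.00370), and the parental line had 100% and 100%. RNF223 had 26.0% and 11.9% in KO clone 3, 71.7% and 75.2% in KO clone 12 and 73.1% and 72.7% in the parental line, a difference between the clones of -54.5 points (adjusted p = 0.000873). TCL1A, an AKT cofactor of early B cells, had 0% and 0% in KO clone 3, 40.8% and 40.8% in KO clone 12 and 32.0% and 24.3% in the parental line, a difference between the clones of -40.8 points (adjusted p = 0.00486).

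Chromosome X entered no test of the report. Peaks on it covered 2.78 and 2.26 Mb in KO clone 3 and 0.930 and 0.574 Mb in the parental line, a difference of the means of 1.77 Mb.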

How the results depend on the processing

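Called length, peak number, median width and the share of length in genes kept the direction of their mean differences under every setting tried. For peaks with a -log10 q of at least 5, length differed by 1.14 Mb between overlapping groups. The depth-matched pair was not among these settings. There, KO replicate 2 had 18.2 Mb and 18152 such peaks, against 35.8 Mb and 25874 in parental replicate 1. At a fold of at least 4 the lengths were 7.89 and 9.35 Mb. Median fold did not keep its direction: its difference of -0.0871 turned to 0.351 among peaks with a -log10 q of at least 5 and 0.101 among those with a fold of at least 4. The share of KO clone 3 peaks that overlapped a parental peak was 28.9% at 1 bp and 17.9% at a reciprocal 50%. The causes of the changes below were not tested.

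Against the parental line, 2960 genes were gained and 90 lost, and 21393 bins were gained and 247 lost. Scaling to equal called length gave 1543 and 1725 genes, and 13043 and 5515 bins. Lists shortened to their strongest 35.7 Mb gave 287 and 259 genes, and 1064 and 713 bins. Peaks with a -log10 q of at least 5 gave 0 and 0 genes by limma (425 and 170 at an unadjusted p under 0.05), and 14 and 4 bins. Peaks with a fold of at least 4 gave 0 and 0 genes by limma (329 and 83 at an unadjusted p under 0.05), and 7 and 3 bins. Joining peaks over 3 kb left 54 lost genes and 130 lost bins. Pileup as a covariate gave 476 lost genes and 1865 lost bins. A fit of the compared groups alone gave 1416 and 57 genes and 155 lost bins, and a fit of the KO experiment alone 1690 and 58 genes. The depth-matched pair, added after seeing the data, gave 1046 and 56 genes and 7669 gained bins. Without the coverage filter 397 bins were lost, and at 50 kb 150 bins. Leaving out each replicate gave 1781 to 2883 gained genes, 42 to 96 lost genes, 12790 to 19559 gained bins and 113 to 386 lost bins.

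Against KO clone 12, 519 genes were higher and 13 lower. Scaling gave 57 and 6, shortened lists 24 higher, -log10 q of at least 5 gave 3 and 0 (250 and 48 at an unadjusted p under 0.05), fold of at least 4 gave 0 and 1 (156 and 39), the compared groups alone 0 and 0 (1117 and 167), the KO experiment alone 20 and 1, no filter 904 and 32, and pileup as a covariate 55 lower. Leaving out each replicate gave 144 to 733 higher and 9 to 41 lower.

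Replicate numbers are not stated to pair the samples, and the correlation of the replicate deviations of KO clone 3 and the parental line over genes was 0.225. With a replicate block 3483 genes were gained and 148 lost and 454 bins were lost against the parental line, and against KO clone 12 the block gave 822 higher and 24 lower genes.

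For 66 named genes and 868 combinations with a setting, 526 kept direction and call, 332 lost the call and 10 turned in direction. After scaling HOXA3 turned to -0.37, COL27A1 to -5.30 and KRTAP10-1 to -7.55. With shortened lists COL27A1 turned to -3.20. Among peaks of -log10 q of at least 5, KRT6C turned to 9.19, FCRL1 to -0.19, COL27A1 to -2.24 and KRTAP10-1 to -50.0. Among peaks of fold at least 4, HOXA3 turned to -0.10 and FCRL1 to -0.19. A region not listed in the shallow parental replicate 2 can still carry the mark, so a gain there cannot be told apart from a peak missed at that depth.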
